A study of Mus musculus with 9 samples.

Results

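The lipid droplet and lipolysis genes examined here were 10 genes chosen by name: the droplet coat genes Plin2, Plin3, Plin4 and Plin5, the triglyceride synthases Dgat1 and Dgat2, and the lipolysis genes Pnpla2, Abhd5, G0s2 and Lipe. All 10 were found among the 56941 gene identifiers of the count table, and all 10 were among the 18548 genes that passed the filter on low counts. RNA had been sequenced from islets, the hormone-secreting cell clusters of the pancreas, of male wild-type C57BL/6J mice. Feeding began at an age of 15 weeks, and each mouse ate 1 of 3 diets for 9 months. The low fat diet (LFD, 3 libraries) held 10% fat, the high fat diet (HFD, 2 libraries) 60% fat and the ketogenic diet (KD, 4 libraries) 89.9% fat. The labels did not say whether the libraries of a diet came from separate animals, so the p-values below measure only the spread between these libraries. The labels gave no batch or date, and a batch that followed the diets cannot be told apart from them.

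Cells store surplus fatty acids as triglyceride inside lipid droplets, which are coated by perilipins. The enzymes DGAT1 and DGAT2 add the last fatty acid in triglyceride synthesis. Adipose triglyceride lipase (ATGL, the product of Pnpla2) removes the first fatty acid, hormone-sensitive lipase (Lipe) the next, and monoglyceride lipase (Mgll) the last. ABHD5 (also CGI-58) activates ATGL, G0S2 inhibits it, and perilipins control the access of both lipases to the droplet. In beta cells, droplets hold fatty acids that would otherwise be free, and lipolysis supplies lipid signals that take part in insulin secretion.

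Many droplet genes are known targets of the peroxisome proliferator-activated receptors (PPARs), fatty acid-sensing nuclear receptors that bind DNA repeats built on AGGTCA. Windows of 300 bases around the annotated starts, taken from RefSeq with GRCm38.p6 coordinates, were found for 8 of the 10 genes, all except Dgat1 and Dgat2. These 8 genes had 10 windows. Searched on both strands, AGGTCA lay in 4 of them (Abhd5, Plin2 and Plin5), and 16.3% of all 32851 windows of that length held it. For each of these genes a stretch before the start and outside annotated exons is shown because it carries a match. The match is in capitals and reads TGACCT where it lies on the opposite strand. Abhd5 (chr9:122351366-122351607, plus strand), Plin2 (chr4:86670218-86670309, minus strand) and Plin5 (chr17:56117607-56117798, minus strand) read, 5′ to 3′:
Abhd5: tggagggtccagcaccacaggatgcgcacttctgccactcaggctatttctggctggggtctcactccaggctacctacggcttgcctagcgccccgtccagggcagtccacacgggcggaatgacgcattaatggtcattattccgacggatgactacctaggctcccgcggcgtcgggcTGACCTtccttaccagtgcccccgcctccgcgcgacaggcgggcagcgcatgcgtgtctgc
Plin2: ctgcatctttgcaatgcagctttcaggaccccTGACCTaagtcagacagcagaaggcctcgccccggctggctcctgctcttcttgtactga
Plin5: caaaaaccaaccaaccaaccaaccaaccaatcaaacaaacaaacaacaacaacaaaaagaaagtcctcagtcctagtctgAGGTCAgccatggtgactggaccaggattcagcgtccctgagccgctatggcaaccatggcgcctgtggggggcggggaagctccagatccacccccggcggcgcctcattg
The matches shown lay 69 bases before the start of Abhd5, 218 before Plin2 and 170 before Plin5. The E-box CACGTG lay in 2 of the 10 windows, in Lipe and Plin2 (7.15% of all windows). CCAAT lay in 4, in Plin2, Plin3, Plin4 and Plin5 (37.4%), and the cAMP response element TGACGTCA in 0 (1.79%). A match describes these letters only.

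The libraries held 15513502 to 26588390 counts. Values in CPM, the usual scaling of counts to a common library size, were computed on library sizes scaled by the trimmed mean of M-values (TMM), whose factors ran from 0.542 to 1.503 and were lowest in KD replicates 1 and 3. The share of counts from digestive-enzyme (acinar) marker genes was 13.9% to 32.0% on LFD, 10.5% to 17.2% on HFD and 18.2% to 55.3% on KD. The share from beta cell markers was 5.76% to 9.57%, 11.7% to 13.0% and 1.71% to 12.9%, and summed lymphocyte markers lay at 24.6 to 130 CPM, 5.00 to 5.53 CPM and 1.603 to 4.12 CPM. Of 12 markers of adipocytes, the cells richest in droplet proteins, 8 were too low to test, with Adipoq at no more than 0.448 CPM, Plin1 at no more than 0.314 CPM and Cidec at no more than 0.627 CPM in any library. The 4 that were tested lay higher over the 9 libraries: Fabp4 at 6.28 to 16.6 CPM, Acvr1c at 7.93 to 18.3 CPM, Thrsp at 1.95 to 6.79 CPM and Car3 at 0.233 to 4.17 CPM. The adipocyte score used below is the mean log2 CPM of these 4 only, and Fabp4 is also among the pathway genes counted below. The 12 adipocyte markers summed to 26.5 to 32.3 CPM on LFD, 35.3 to 36.5 CPM on HFD and 23.9 to 36.6 CPM on KD. These sums came mainly from the 4 tested markers, and whether they follow the content of adipocytes was not tested.

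Per kilobase of merged exon (RPKM on the scaled library sizes), Pnpla2 was the most abundant of the 10 at 7.92 ± 1.94 (SD, n = 9), above 81.1% of the 18047 tested genes that had a length. Plin2, the coat protein of most tissues, followed at 5.97 ± 1.53 RPKM (SD, n = 9). Plin3 at 3.53, G0s2 at 3.19, Dgat1 at 2.91 and Abhd5 at 2.84 RPKM lay close together, and neighbours in that order changed places in 4 or 5 of the 9 libraries. Below them came Lipe at 1.59, Dgat2 at 1.15 and Plin4 at 0.883 RPKM. Plin5, the coat protein of oxidative tissues such as heart, was last at 0.234 ± 0.0899 RPKM (SD, n = 9). Abhd5 was above Lipe, and Plin4 above Plin5, in 9 of 9 libraries, Lipe was above Dgat2 in 8, Plin2 above Plin3 and Dgat2 above Plin4 in 7, and Pnpla2 above Plin2 in 6. The widest spread between single libraries was in Plin4 (8.71-fold between the lowest and highest CPM) and the narrowest in Abhd5 (1.54-fold).

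The first question was whether any of the 10 genes differed between the diets, and none passed the test. With an edgeR quasi-likelihood model over all 18548 tested genes, 0 of the 10 reached an adjusted p below 0.05 on KD against LFD, where 4.12% of all tested genes did. None did on HFD against LFD (0% of all genes), on KD against HFD (0%) or in the joint test over the 3 diets (2.17%). At an unadjusted p below 0.05 there were 2 of 10 on KD against LFD (22.7% of all genes), 1 on HFD against LFD (9.99%), 3 on KD against HFD (22.7%) and 3 in the joint test (24.6%). DESeq2 called 1 of the 10, Plin3 on KD against HFD (8.18% of all genes), and 0 on KD against LFD (9.56%), on HFD against LFD (1.44%) and in the joint test (12.6%). Limma-voom called 0 of the 10 throughout, beside 10.1%, 0.0593% and 0% of all genes in these contrasts, taken in the order KD against LFD, HFD against LFD and KD against HFD, and 8.15% in the joint test. The lowest joint p-values were those of Plin3 (adjusted p = 0.153 by edgeR), Dgat2 (adjusted p = 0.181 by edgeR) and Pnpla2 (adjusted p = 0.195 by edgeR). Across the 10 genes the median log2 fold change was -0.14 on KD against LFD, -0.13 on HFD against LFD and 0.06 on KD against HFD, beside -0.02, -0.00 and -0.04 over all tested genes. The 3 contrasts share libraries and are not independent of each other. Islet RNA is a mixture, so a lower value could mean fewer cells of a type or less RNA per cell, and these cannot be told apart.

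**Figure D1:**
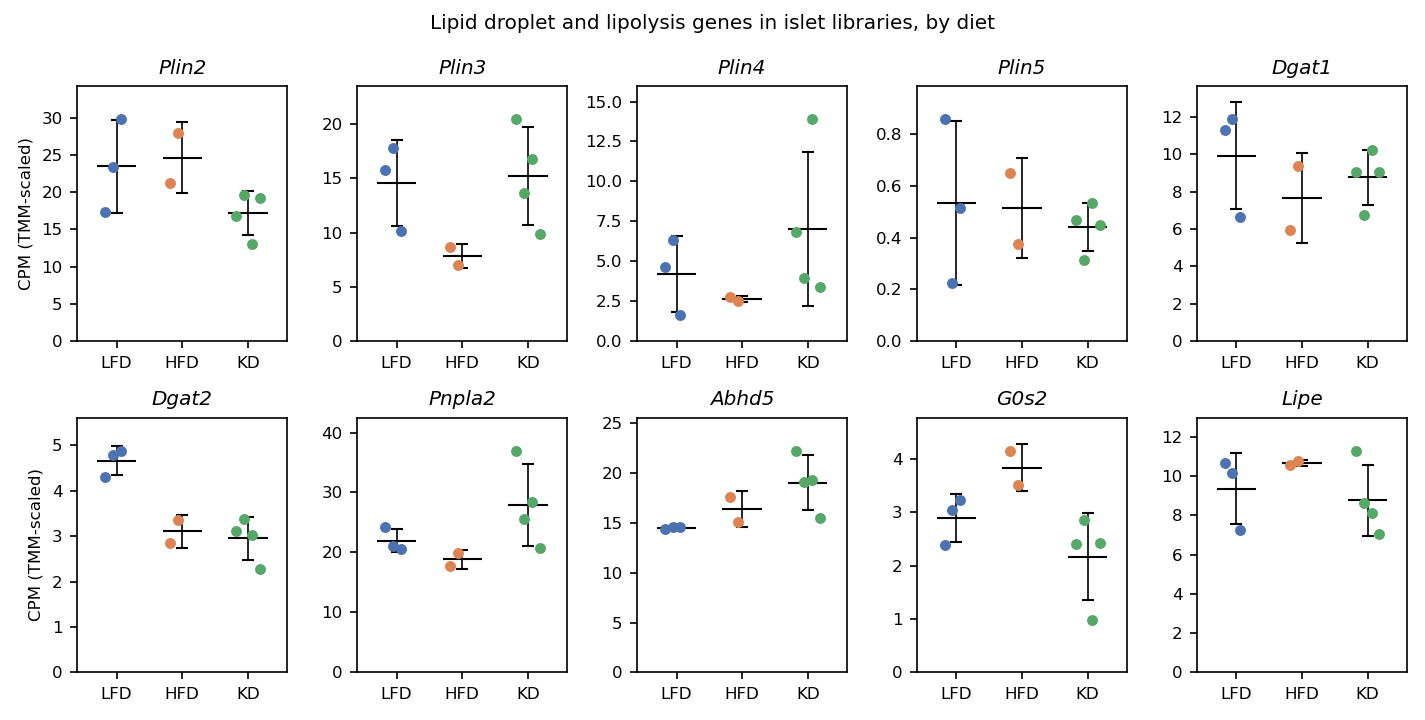
CPM of each of the 10 genes (vertical axes, linear from 0) in each library (points) by diet, with the mean of each diet as a line and the SD as a bar. In all 6 HFD and KD libraries Dgat2 is lower and Abhd5 higher than in the 3 LFD libraries, while the other 8 genes overlap between LFD and at least 1 of the other diets.

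Among the coat genes, Plin2 measured 17.4, 23.3 and 29.8 CPM in the 3 LFD libraries, 21.3 and 28.0 CPM on HFD and 16.8, 19.6, 13.1 and 19.2 CPM on KD. All 4 KD values lay below both HFD values, while KD and LFD overlapped. The log2 fold change of Plin2 was -0.45 on KD against LFD (SE 0.21, adjusted p = 0.221 by edgeR) and -0.52 on KD against HFD (SE 0.23, adjusted p = 0.211 by edgeR). On HFD against LFD it was 0.07. Summed macrophage markers, another cell type rich in Plin2, were 99.8 to 173 CPM on LFD, 118 to 156 CPM on HFD and 48.6 to 92.1 CPM on KD, so they too were lower in the KD libraries, and their part in the Plin2 values was not tested.

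Plin3, a coat protein that moves from the cytosol onto young droplets, was the gene with the lowest joint p. It measured 15.8, 17.8 and 10.2 CPM on LFD, 8.65 and 7.04 CPM on HFD and 20.5, 13.6, 16.8 and 9.90 CPM on KD. Both HFD values lay below every value of the other diets, and KD and LFD overlapped. Its log2 fold change was -0.90 on HFD against LFD (SE 0.32, adjusted p = 0.420 by edgeR) and 0.95 on KD against HFD (SE 0.31, adjusted p = 0.131 by edgeR). DESeq2 gave the second an adjusted p of 0.0400, and without KD replicate 4 edgeR gave it 1.11 with an adjusted p of 0.0321. Across the 22 alternatives for that contrast its adjusted p-values spanned 0.0160 to 0.941.

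The acinar score, the mean log2 CPM of the acinar markers, was 12.23, 11.58 and 10.73 on LFD, 11.00 and 10.08 on HFD and 13.59, 12.58, 13.44 and 11.11 on KD. Plin3 was lowest within LFD in replicate 3 and lowest within KD in replicate 4, the libraries with the lowest acinar score of their diets. With the score as a covariate the log2 fold change of Plin3 was -0.50 on HFD against LFD, 0.07 on KD against HFD and -0.43 on KD against LFD, and none was called. The part of acinar RNA in the Plin3 values was not tested beyond that fit.

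Plin4, a perilipin best known from adipose tissue and muscle, measured 4.66, 6.32 and 1.59 CPM on LFD, 2.75 and 2.51 CPM on HFD and 6.85, 3.92, 13.9 and 3.41 CPM on KD. The highest value came from KD replicate 3, and every KD value lay above both HFD values. Its log2 fold change was 1.39 on KD against HFD (SE 0.65, adjusted p = 0.231 by edgeR), and with the acinar score as a covariate it was -0.24. On KD against LFD it was 0.72 with a 95% interval from -0.47 to 1.91, and on HFD against LFD -0.67. Plin5 measured 0.858, 0.224 and 0.516 CPM on LFD, 0.650 and 0.377 CPM on HFD and 0.467, 0.312, 0.534 and 0.448 CPM on KD. The diets overlapped, and the values rested on 5 to 14 counts per library (5 counts carry an exact 95% Poisson interval of 1.62 to 11.7, for counting error only). The log2 fold changes of Plin5 were -0.27, -0.04 and -0.23 on KD against LFD, HFD against LFD and KD against HFD, and no difference was detectable at this depth.

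Of the 10 genes, the triglyceride synthase Dgat2 had the lowest unadjusted p on KD against LFD. It measured 4.29, 4.79 and 4.88 CPM on LFD, 2.85 and 3.35 CPM on HFD and 3.11, 3.39, 3.03 and 2.29 CPM on KD, from 34 to 107 counts per library. The 3 LFD values were the 3 highest of the 9, and HFD and KD overlapped. The mean was 4.65 ± 0.317 CPM on LFD (SD, n = 3), 3.10 ± 0.354 CPM on HFD (SD, n = 2) and 2.95 ± 0.471 CPM on KD (SD, n = 4). The log2 fold change of Dgat2 was -0.66 on KD against LFD (95% interval -1.18 to -0.14, adjusted p = 0.131 by edgeR), -0.58 on HFD against LFD (SE 0.29, adjusted p = 0.518 by edgeR) and -0.07 on KD against HFD. With the acinar score as a covariate the value on KD against LFD was -0.74 and was not called. The part of acinar RNA in the Dgat2 values was not tested beyond that fit. Markers of duct cells summed to 406 to 509 CPM on LFD, 268 to 290 CPM on HFD and 280 to 412 CPM on KD, so LFD and KD overlapped. Of the 8 duct markers, 7 were lower without overlap on HFD and 5 on KD than on LFD. Beside them, 27.5% and 19.7% of all tested genes did not overlap, in either direction. On KD against LFD, 2 of the 8 had a log2 fold change above 0. Lymphocyte markers lay higher in every LFD library than in any other, and with their score as a covariate the Dgat2 value on KD against LFD was -0.66 (adjusted p = 0.668 by edgeR). Because that score itself separated LFD from the other diets, the fit could hardly tell lymphocyte RNA apart from diet. It called 0% of all genes. The part of duct cell RNA in the Dgat2 values was not tested.

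Dgat2 was the 1 gene of the 10 called on KD against LFD under any alternative, with library totals as the scaling (log2 fold change -1.28, adjusted p = 0.0404 by edgeR, where 8.89% of all genes were called). That scaling moved the median of all tested genes to -0.59 on KD against LFD, 0.20 on HFD against LFD and -0.81 on KD against HFD. Relative to that median the Dgat2 value is close to the one under TMM. Over 22 alternatives its log2 fold change stayed below 0, from -1.28 to -0.53, with adjusted p-values from 0.0404 to 0.668. Dgat1, which makes triglyceride in the endoplasmic reticulum, measured 11.3, 11.9 and 6.61 CPM on LFD, 5.95 and 9.34 CPM on HFD and 9.03, 6.73, 10.2 and 9.05 CPM on KD. Its 3 diets overlapped, and its log2 fold change was -0.18 on KD against LFD and -0.37 on HFD against LFD.

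Among the lipolysis genes, Pnpla2 measured 24.2, 21.1 and 20.6 CPM on LFD, 17.8 and 19.99 CPM on HFD and 37.0, 25.6, 28.4 and 20.7 CPM on KD. Every HFD value lay below every other value, and KD replicate 4 fell among the LFD libraries. The log2 fold change of Pnpla2 was 0.34 on KD against LFD (SE 0.18, adjusted p = 0.289 by edgeR) and 0.56 on KD against HFD (SE 0.21, adjusted p = 0.159 by edgeR). Without KD replicate 4 the second was 0.68 with an adjusted p of 0.0443 by edgeR, where 9.84% of all genes were called. Across 22 alternatives these adjusted p-values spanned 0.0369 to 0.940. With the acinar score as a covariate the 2 values were 0.07 and 0.06.

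Abhd5, the coactivator of ATGL, was the steadiest gene on LFD at 14.4, 14.6 and 14.6 CPM. It measured 17.7 and 15.1 CPM on HFD and 22.3, 19.1, 19.3 and 15.5 CPM on KD. Every HFD and KD value lay above the 3 LFD values, and KD replicate 4 was again the lowest on KD. The spread on LFD and the gap from 14.6 CPM on LFD to 15.1 CPM on HFD both lay within counting error. Abhd5 rested on 217 to 428 counts per library, where 217 counts carry an exact 95% Poisson interval of 189 to 248. Its log2 fold change was 0.39 on KD against LFD (95% interval 0.05 to 0.72, adjusted p = 0.161 by edgeR), 0.17 on HFD against LFD and 0.22 on KD against HFD. The first was 0.21 with the acinar score as a covariate and -0.24 with library totals as the scaling, where the median of all genes was itself -0.59.

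G0s2, the inhibitor of ATGL, measured 2.39, 3.05 and 3.24 CPM on LFD, 4.15 and 3.52 CPM on HFD and 2.41, 2.85, 0.980 and 2.42 CPM on KD. Both HFD values were above all others, and KD replicate 3, with 11 counts, was the lowest. Its log2 fold change was 0.40 on HFD against LFD, -0.40 on KD against LFD and -0.80 on KD against HFD (SE 0.37, adjusted p = 0.226 by edgeR). Lipe measured 10.7, 10.1 and 7.27 CPM on LFD, 10.6 and 10.8 CPM on HFD and 11.3, 8.60, 8.10 and 7.04 CPM on KD. Its diets overlapped, and its log2 fold changes were -0.10 on KD against LFD, 0.19 on HFD against LFD and -0.29 on KD against HFD.

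In GENCODE M21, 918 of the 5886 exon bases of Lipe and 950 of the 5956 of Abhd5 lay under a gene on the opposite strand, 4732471J01Rik and A730085K08Rik. The library kit keeps strand, but the strand setting of the counting was not given in the sources used here. The count totals over all libraries were 263 for 4732471J01Rik beside 1609 for Lipe, and 11 for A730085K08Rik beside 2862 for Abhd5.

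**Figure D2:**
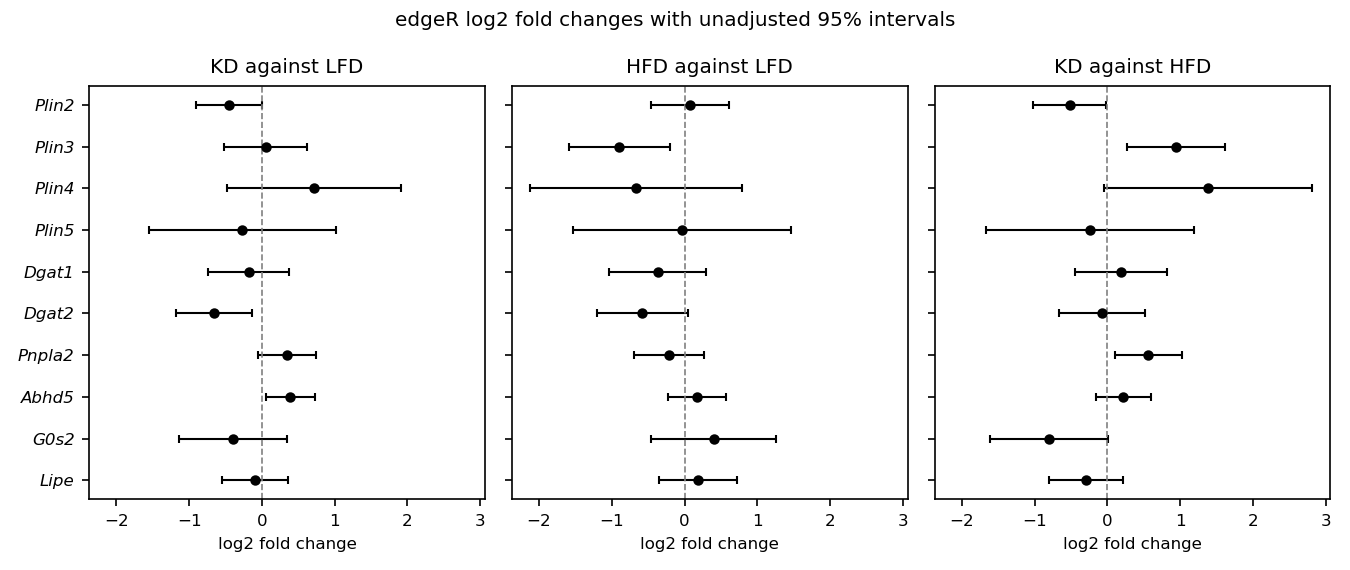
Log2 fold change of each of the 10 genes (horizontal axis) in the 3 contrasts, as points with 95% intervals from the edgeR fit. Dgat2 and Abhd5 on KD against LFD, Plin3 on HFD against LFD, and Plin3, Plin2 and Pnpla2 on KD against HFD have intervals that leave out 0, and none has an adjusted p below 0.05.

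The count of genes whose diets did not overlap was 2 of 10 on KD against LFD (Dgat2 lower, Abhd5 higher), where 19.7% of all tested genes did not overlap. It was 5 of 10 on HFD against LFD (27.5% of all genes): Plin3, Pnpla2 and Dgat2 were lower in both HFD libraries, Abhd5 and G0s2 higher. On KD against HFD it was 5 of 10 (33.9% of all genes): Plin3, Plin4 and Pnpla2 were higher in all 4 KD libraries, Plin2 and G0s2 lower.

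Ratios of 2 genes within a library do not depend on the scaling. Of 6 pairs set side by side, Lipe over Pnpla2, the second lipase over the first, separated the diets. Its log2 ratio of counts was -1.18, -1.06 and -1.50 on LFD, -0.75 and -0.89 on HFD and -1.71, -1.57, -1.80 and -1.56 on KD. No library of 1 diet overlapped another diet, with HFD highest and KD lowest. The nearest LFD and KD values were -1.50 and -1.56. The share of other gene pairs that separate the diets likewise was not computed. KD minus LFD was -0.41, a ratio 0.75 times that on LFD, with an exact two-sided permutation p of 0.0286, the smallest that 35 splits can give, and an adjusted p of 0.171 over the 6 pairs. Leaving out each library in turn gave differences from -0.54 to -0.32, with adjusted p-values from 0.3 to 0.6 by the same permutation test. The acinar score covered 11.11 to 13.59 on KD, 10.73 to 12.23 on LFD and 10.08 to 11.00 on HFD, and its part in this ratio was not tested.

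The other pairs overlapped between KD and LFD. G0s2 over Pnpla2, the inhibitor over its lipase, was -3.32, -2.78 and -2.66 on LFD, -2.09 and -2.50 on HFD and -3.92, -3.16, -4.80 and -3.09 on KD in log2. Both HFD values were the highest. KD minus LFD was -0.82 (exact permutation p = 0.171, adjusted p = 0.400). Abhd5 over Pnpla2, the coactivator over its lipase, differed by 0.06 between KD and LFD (exact permutation p = 0.543), with means of -0.53 ± 0.15 (SD, n = 4) and -0.59 ± 0.14 (SD, n = 3) in log2. Dgat2 over Dgat1 differed by -0.51, Plin2 over Plin3 by -0.48 and Plin5 over Pnpla2 by -0.40, with exact permutation p-values of 0.200, 0.457 and 0.486.

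**Figure D3:**
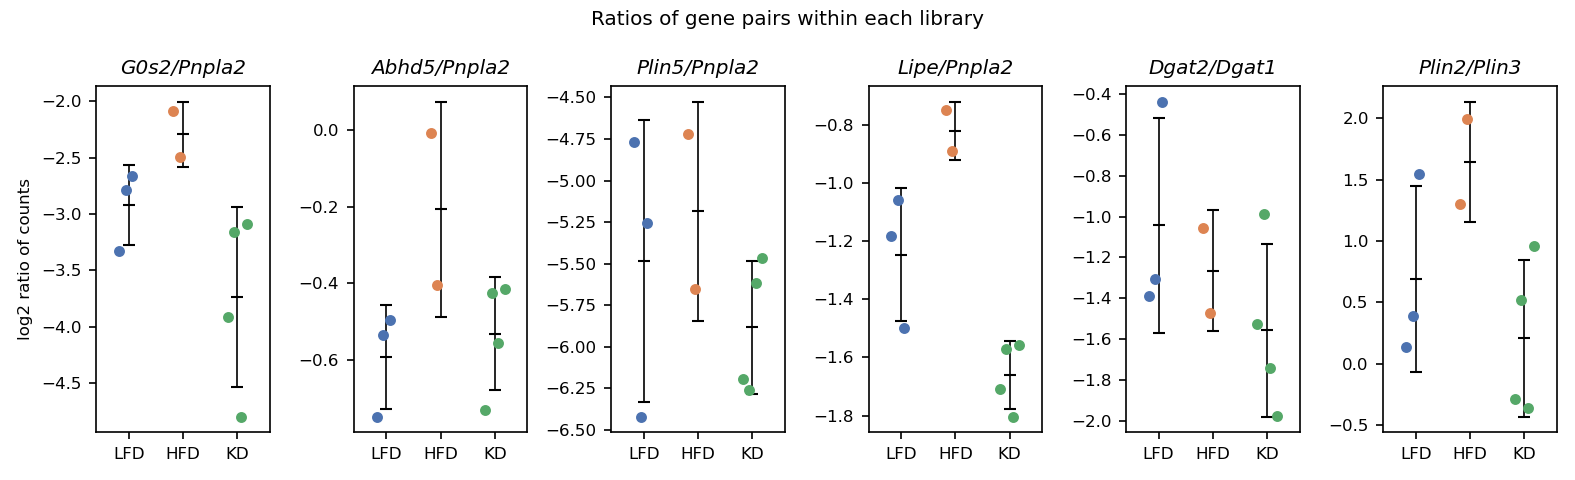
Log2 ratio of counts within each library (vertical axes) for the 6 gene pairs, by diet, with each library as a point, the mean of each diet as a dash and the SD as a bar. In the Lipe over Pnpla2 panel the HFD, LFD and KD libraries occupy separate ranges, and in the other 5 panels LFD and KD overlap.

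The pathway around the 10 genes was described by 72 further genes, of which 71 had a row in the table and 61 passed the filter on low counts. On KD against LFD 2 of the 61 were called, beside 4.12% of all tested genes. Both were higher, beside 0.981% of all tested genes called higher. The edgeR test called 0 of the 61 on HFD against LFD and 0 on KD against HFD, beside 0% of all genes in both. At an unadjusted p below 0.05 there were 15 of the 61 on KD against LFD (22.7% of all genes), 7 on HFD against LFD (9.99%) and 16 on KD against HFD (22.7%). DESeq2 called 5, 0 and 8 of them in the 3 contrasts, beside 9.56%, 1.44% and 8.18% of all genes, and limma-voom 6, 0 and 0, beside 10.1%, 0.0593% and 0%. The median log2 fold change of the 61 was 0.15 on KD against LFD, -0.03 on HFD against LFD and 0.11 on KD against HFD. By role, 0 of 20 genes of droplet coat and growth, 0 of 17 of triglyceride synthesis and 2 of 24 of lipolysis were called on KD against LFD. Plin1, Cidec and Cideb, which coat or enlarge droplets, and Mogat1 and Pnpla1, with 0 counts in every library, were among the 10 not tested.

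Prkaca, the gene of a catalytic subunit of protein kinase A, which phosphorylates hormone-sensitive lipase and perilipin 1, was called higher on KD against LFD. It measured 51.6, 57.4 and 55.4 CPM on LFD, 51.6 and 61.9 CPM on HFD and 79.5, 81.3, 74.0 and 80.2 CPM on KD. All 4 KD values lay above the other 5. The log2 fold change was 0.52 on KD against LFD (SE 0.11, adjusted p = 0.0308 by edgeR) and 0.47 on KD against HFD (SE 0.13, adjusted p = 0.124 by edgeR). The first lost its call without LFD replicate 1 (adjusted p = 0.147), LFD replicate 2 (0.0774), KD replicate 1 (0.0604), KD replicate 2 (0.0862) or KD replicate 3 (0.0763), and with library totals as the scaling it was -0.05. Across 22 alternatives its adjusted p-values spanned 0.000930 to 0.914. Prkacb, the gene of another catalytic subunit, was more abundant and did not rise on KD. It lay at 293 to 479 CPM on LFD, 401 to 414 CPM on HFD and 221 to 382 CPM on KD. The joint test did not call Prkacb (adjusted p = 0.429 by edgeR).

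Mgll, which cleaves monoglyceride in the last step of lipolysis, was also called higher on KD against LFD, just below the threshold. It measured 34.9, 35.8 and 17.4 CPM on LFD, 46.3 and 41.9 CPM on HFD and 95.3, 59.0, 63.0 and 46.2 CPM on KD. Its KD values lay above all LFD values but overlapped HFD. The log2 fold change was 1.16 on KD against LFD (SE 0.29, adjusted p = 0.0496 by edgeR), and of the fits that left out a library only the one without KD replicate 4 kept the call (adjusted p = 0.0272). With the acinar score as a covariate it was 0.72 (adjusted p = 0.0496 by edgeR), and with library totals as the scaling 0.50 (adjusted p = 0.261 by edgeR). The call was lost in 16 of 22 alternatives, and across the 22 the adjusted p-values spanned 0.00261 to 0.261.

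The lowest p-values among the uncalled pathway genes were those of Nceh1, Pnpla3 and Ces1d on HFD against LFD and of Pnpla3, Prkaca and Bscl2 on KD against HFD. Pnpla3, a droplet-bound relative of ATGL, measured 0.368, 1.57 and 0.657 CPM on LFD, 3.10 and 2.35 CPM on HFD and 0.545, 0.535, 0.712 and 0.583 CPM on KD. Both HFD values were above all others. Its log2 fold change was 1.62 on HFD against LFD (SE 0.53, adjusted p = 0.381 by edgeR) and -2.20 on KD against HFD (SE 0.51, adjusted p = 0.124 by edgeR). The second was called in 5 of 21 alternatives, among them DESeq2 (adjusted p = 0.0106). Pnpla3 rested on few counts, in all 55 on LFD, 118 on HFD and 40 on KD. Bscl2, the seipin gene of droplet formation, was 16.6 to 22.3 CPM on LFD, 17.2 and 22.1 CPM on HFD and 26.5 to 48.0 CPM on KD, with a log2 fold change of 0.89 on KD against HFD (SE 0.25, adjusted p = 0.124 by edgeR). That value was 0.17 with the acinar score as a covariate. Nceh1, a cholesteryl ester and ether lipid hydrolase, was 32.5 to 34.1 CPM on LFD and 45.4 and 49.5 CPM on HFD, a log2 fold change of 0.51 (SE 0.14, adjusted p = 0.308 by edgeR).

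**Figure D4:**
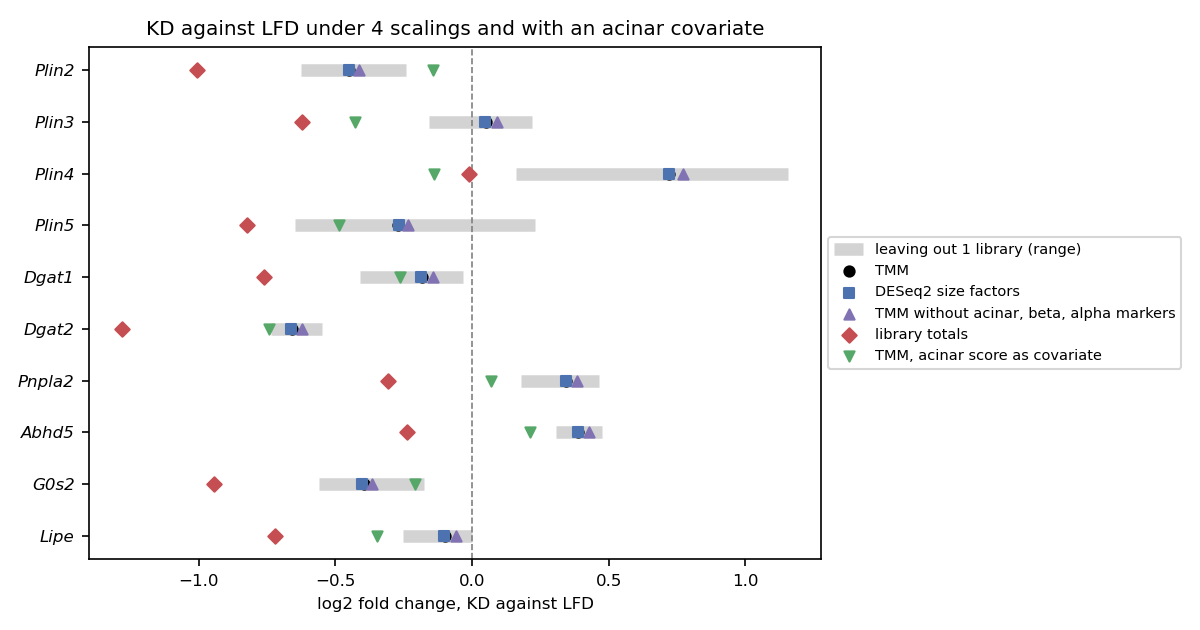
Log2 fold change of each of the 10 genes on KD against LFD (horizontal axis) under 4 scalings and with the acinar score as a covariate (markers), with the range when each library is left out as a grey bar. Dgat2 is below 0 throughout, at -0.66 with TMM, -0.74 with the acinar score and -1.28 with library totals, while Abhd5 and Pnpla2 are below 0 with library totals only, at -0.24 and -0.31.

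For the 2 genes of lowest joint p, the tested genes with the most similar course over the 9 libraries were found by the root mean square difference of mean-centred log2 CPM, among 14448 named genes. For Plin3, whose own root mean square deviation was 0.50, these were Wnk2 (0.13), Dgka (0.13) and Plec (0.14). Dgat2 deviated by 0.33, and its 2 nearest genes were Rpain (0.11) and Slc30a1 (0.12). The likeness is a description over 9 libraries.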

How the data were processed

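The authors deposited raw counts, as whole numbers per Ensembl gene, for 9 polyadenylated, directional islet RNA libraries. The submitters' processing notes name cutadapt 1.16, STAR 2.7.9a, featureCounts 1.6.3, DESeq2 1.40.2 and the build GRCm39 (mm39). The sources used here do not give the strand setting, annotation release or treatment of multi-mapping reads. Symbols matched 51948 of the 56941 identifiers. Promoter windows carry RefSeq GRCm38.p6 coordinates, and exon lengths come from GENCODE M21.

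Columns were grouped by the diet in the sample titles. In R 4.3.3 with edgeR 4.0.16, filterByExpr kept 18548 genes, libraries were scaled by TMM, and robust glmQLFit and glmQLFTest compared the diets over all 9 libraries, with two-sided p-values adjusted by Benjamini-Hochberg over all tested genes (threshold 0.05). Scripts were tested on simulated data. Gene ratios used log2 of counts plus 0.5 and exact two-sided permutation tests. Alternatives were other scalings, filters, tools (DESeq2 1.42.0, limma 3.58.1), marker scores as covariates, a replicate block, and leaving out each library. The lymphocyte score as a covariate, library totals as the scaling and leaving out the 2 KD libraries of highest acinar score were chosen after seeing the data. All 10 genes are named. Of the other pathway genes, those called are named, otherwise the 3 of lowest p per contrast. Prkacb was added beside Prkaca after its values were seen. One gene that the rule for similar courses named is not reported here. The genes and lists were chosen with earlier results of these data known.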

Additional observations from a re-analysis of the deposited data

How the results depend on the processing

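Of 824 recomputed fold changes of single genes, 738 kept their direction and side of the threshold, 45 reversed, 17 gained a call and 24 lost one. Precision was limited by 2 HFD libraries and by low counts in Plin5, G0s2 and Dgat2. The causes of the changes below were not tested. Of the 10 genes, 1 was called on KD against LFD with library totals (Dgat2), 1 on KD against HFD by DESeq2 (Plin3) and 0 to 2 when each library was left out (2 without KD replicate 4). The deviations of same-numbered libraries from their diet means had correlations of 0.222, -0.0164 and -0.00265 for LFD with KD. For LFD with HFD they were 0.0688 and 0.0752, and for HFD with KD 0.0380 and 0.0808. Correlations from so few libraries cannot settle whether the numbers pair them. With the replicate block 2 of the 10 were called on KD against HFD (12.5% of all genes) and 2 in the joint test (15.2%). Called pathway genes on KD against LFD, each with the share of all tested genes called in the same fit, numbered 1 with DESeq2 size factors (3.91%), 5 by DESeq2 (9.56%), 6 by limma-voom (10.1%), 1 at 5 CPM or more (3.31%), 1 with only the groups compared (3.12%), 5 with the acinar score (7.88%), 0 with the adipocyte score (0.14%), 6 with the replicate block (10.8%), 0 with the lymphocyte score (0%), 0 without the 2 KD libraries of highest acinar score (0.351%) and 0 to 5 when each library was left out (0.822% to 7.40%). With the replicate block 1 was called on HFD against LFD (2.13%). On KD against HFD they numbered 8 by DESeq2 (8.18%), 2 without a filter (1.02%), 9 with the replicate block (12.5%), 4 with library totals (8.25%) and 0 to 8 when each library was left out (0% to 9.84%).

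On KD against LFD the following log2 fold changes had the opposite sign. With the acinar score Plin3 was -0.43 and Plin4 -0.14; without the 2 KD libraries of highest acinar score they were -0.31 and -0.20. With library totals Plin3 was -0.62, Plin4 -0.0093, Pnpla2 -0.31, Abhd5 -0.24 and Prkaca -0.049. Plin3 was -0.12 by limma-voom, -0.0059 at 5 CPM or more and -0.11 with the adipocyte score. With the lymphocyte score Lipe was 0.72 and Dgat1 0.80. Leaving out each library gave -0.16 to 0.22 for Plin3 and -0.65 to 0.23 for Plin5, and -0.016 to 0.13 for the log2 ratio of Abhd5 over Pnpla2.

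On HFD against LFD the acinar score gave -0.16 for Plin2, 0.10 for Plin4, 0.17 for Plin5 and 0.0053 for Pnpla2. The lymphocyte score gave -0.14 for Plin2, 0.48 for Plin4 and 0.41 for Dgat1. Plin5 was 0.13 with the replicate block and 0.17 with library totals, where Pnpla2 was 0.0042. Leaving out each library gave -0.14 to 0.28 for Plin2 and -0.47 to 0.44 for Plin5. On KD against HFD the acinar score gave 0.019 for Plin2, -0.24 for Plin4 and -0.094 for Abhd5. Library totals gave -0.31 for Pnpla2, -0.60 for Abhd5, -0.64 for Dgat1 and -0.32 for Prkaca. Dgat2 was 0.0093 by limma-voom and 0.033 with the replicate block. Leaving out each library gave -0.093 to 0.56 for Dgat1, -0.18 to 0.053 for Dgat2 and -0.57 to 0.20 for Plin5.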

Other observations

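Hsd17b13 and Ces1d of the wider droplet pathway were singled out after their values were seen. Hsd17b13, a droplet-bound enzyme best known from liver, measured 68.6, 45.8 and 20.9 CPM on LFD, 25.9 and 11.5 CPM on HFD and 176, 103, 159 and 29.1 CPM on KD. Its log2 fold change was 2.64 on KD against HFD (SE 0.80, adjusted p = 0.131 by edgeR) and 1.37 on KD against LFD (SE 0.63, adjusted p = 0.242 by edgeR). The 3 highest values came from KD replicates 1, 3 and 2, the libraries with the 3 highest acinar scores (13.59, 13.44 and 12.58), and the part of acinar RNA in them was not tested. Ces1d, a carboxylesterase that hydrolyses triglyceride, measured 80.7, 74.3 and 59.5 CPM on LFD, 48.4 and 34.7 CPM on HFD and 53.0, 40.6, 41.5 and 24.1 CPM on KD. Every LFD value was above every value of the other diets, with log2 fold changes of -0.85 on KD against LFD (SE 0.23, adjusted p = 0.0647 by edgeR) and -0.78 on HFD against LFD (SE 0.28, adjusted p = 0.428 by edgeR). The main fit did not call the KD against LFD difference of Ces1d. It was called, with the share of all genes in brackets, by DESeq2 (9.56%), by limma-voom (10.1%) and without a filter (3.42%). It was also called with the acinar score (7.88%), the replicate block (10.8%) and library totals (8.89%). The same held without KD replicate 1 (2.06%) or KD replicate 4 (7.4%). The other alternatives did not call it. With the acinar score as a covariate the HFD against LFD value was -0.41.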
